A study of Mus musculus with 40 samples.

Results

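The contractile genes of smooth muscle were followed through the aortas and kidneys of mice with and without an endothelial deletion of EGFR. The members are 10 genes chosen by name: Acta2, Myh11, Smtn, Lmod1, Mylk, Des, Myl9, Myocd, Cald1 and Tpm2. All 10 are listed in both gene tables, which hold 55335 genes for aortas and 55382 for kidneys. Tagln and Cnn1, the classical partners of this set, lie on chromosome 9. The tables list 0 counts for every gene on this chromosome, so both are listed at 0 in all 40 libraries and stay without a value.

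Each tissue was represented by 20 libraries, 5 for each of 4 groups: WT SFD, WT HFD, KO SFD and KO HFD. KO mice (EC-EGFR-KO) came from EGFRflox/flox C57BL/6 animals mated with B6.Cg-Tg(Tek-cre)1Ywa mice of C57BL/6J background, in which the Tie2 promoter drives Cre and exon 1 of Egfr is excised. WT mice had no loxP sites but carried the same Tie2-Cre. SFD provided 10% and HFD 60% of energy as fat. HFD was given from 6 weeks of age for 18 weeks, after a week of mixed chow. Fat and connective tissue around the aortas had been removed. The growth notes in the labels call the model a deletion in vascular smooth muscle, while naming the Tie2-driven Cre, and the sample labels name endothelial cells. The Tie2 promoter is also known to be active in blood cells. By the design of the model smooth muscle cells keep their Egfr, which the counts used here do not check.

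Smooth muscle contracts when calcium and calmodulin switch on myosin light chain kinase, which phosphorylates the regulatory light chain and lets myosin pull on actin filaments. Among the members, Acta2 encodes smooth muscle α-actin, Myh11 the smooth muscle myosin heavy chain, Myl9 the regulatory light chain and Mylk its kinase. Tpm2 (β-tropomyosin) and Cald1 (caldesmon) lie along the actin filament, Lmod1 (leiomodin 1) nucleates actin filaments, Smtn (smoothelin) binds them, and Des (desmin) forms intermediate filaments. Myocd (myocardin) is the coactivator of serum response factor (SRF) that switches on most of the others. SRF binds a short DNA element, the CArG box. Loss of these transcripts is known as a sign of vascular smooth muscle cells that leave the contractile state.

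Before the results, 4 libraries need mention. The KO SFD aorta R-12 and the WT SFD aorta R-1 differed by less than sampling noise (the chi-square of single genes had a median of 0.0263, against 0.455 from noise alone), as did the KO HFD kidney a1 and the WT HFD kidney a12 (0.0253). The closest other pairs reached 1.57 and 1.59. All comparisons were therefore repeated without these pairs, and again 0 members were called for diet or genotype. The aortic libraries held 17520161 to 36452741 counts and the kidney libraries 19643033 to 48833447, so the depth is no limit for the members in aortas. The largest totals were those of the pairs, 36419598 in R-1 and 36452741 in R-12, 48788716 in a1 and 48833447 in a12. The next were 23683293 in aortas (R-11) and 31369285 in kidneys (a16). Each pair carries a WT and a KO label, and whether these labels hold cannot be told here. The labels do not say that every library came from a separate mouse. The p-values judge differences against the spread between these samples, which may be technical in part. They also take the libraries as independent, which the near-identical pairs may not be. Levels are given as FPM, fragments counted on a gene per 1e6 of the TMM-normalized library size. The labelled tissues carried their markers. The summed level of 5 genes of the aortic wall was 9303 to 14359 FPM in aortas and 73.0 to 305.8 FPM in kidneys, and that of 8 nephron genes 0.699 to 2.33 FPM in aortas and 10269 to 12218 FPM in kidneys (Umod and Nphs1 are listed at 0 in aortas). Egfr itself did not pass the test for KO against WT, with a log2 fold change averaged over diets of 0.14 in aortas (adjusted p = 0.729) and -0.01 in kidneys (adjusted p = 0.991, edgeR's quasi-likelihood test). Cells other than endothelium express it too, and counts over the whole gene lie mostly outside the deleted exon, so this value does not check the deletion.

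In aortas the members took between 3.74% and 5.58% of all counts, and Acta2 alone between 1.68% and 2.85%. In kidneys the 10 genes together took 0.0187% to 0.0413%. Per kilobase of exon, the order in aortas was led by the actin and the light chain. Exon length is that of all annotated transcripts of a gene merged, which can exceed the length of the transcript expressed. Acta2 (ENSMUSG00000035783, chromosome 19, 34241090 to 34255590, GRCm38) had a mean level of 9912 ± 2271 FPM per kb (SD, n = 20 libraries). Myl9 (ENSMUSG00000067818, chromosome 2, 156775420 to 156781658) followed with 5108 ± 1574, Myh11 (ENSMUSG00000018830, chromosome 16, 14194535 to 14291372) with 1211 ± 125 and Tpm2 with 1038 ± 308 FPM per kb. Acta2 was above Myl9 in 20 of 20 libraries. Myh11 and Tpm2 exchanged places, with Myh11 the higher in 12 of 20 libraries. Then came Smtn at 267 ± 38.8, Lmod1 at 249 ± 41.96, Cald1 at 169.6 ± 42.4 and Mylk at 119 ± 25.4 FPM per kb. Smtn exceeded Lmod1 in 13 of 20 libraries, so these neighbours do not differ beyond their spread. By position, Smtn spans 3517523 to 3540612 and Myocd 65176561 to 65269989 on chromosome 11. Lmod1 spans 135324807 to 135368065 and Des 75360329 to 75368579 on chromosome 1. Mylk lies at 34745210 to 35002420 on chromosome 16, Cald1 at 34598500 to 34775473 on chromosome 6 and Tpm2 at 43514711 to 43523765 on chromosome 4. Des with 32.04 ± 13.3 and Myocd with 10.2 ± 8.34 FPM per kb closed the order.

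In kidneys the order was another one. Myl9 came first at 36.2 ± 7.4 FPM per kb, followed by Smtn at 13.8 ± 1.81, Mylk at 9.18 ± 2.14 and Acta2 at 7.67 ± 1.59. The smooth muscle myosin Myh11 ranked eighth with 1.84 ± 0.268 and Lmod1 ninth with 0.736 ± 0.261 FPM per kb. Tpm2 was above Cald1 in 12 of 20 kidneys and Mylk above Acta2 in 15 of 20, so neither pair has a firm order. Myocd was close to the limit of detection, with 35 counts over the 20 kidneys, at most 6 in a library and 0 in 4 libraries, where a count of 0 allows up to 3 counts. In the 20 aortas it had 27436 counts. The plot of levels per kilobase shows both orders.

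**Figure D1:**
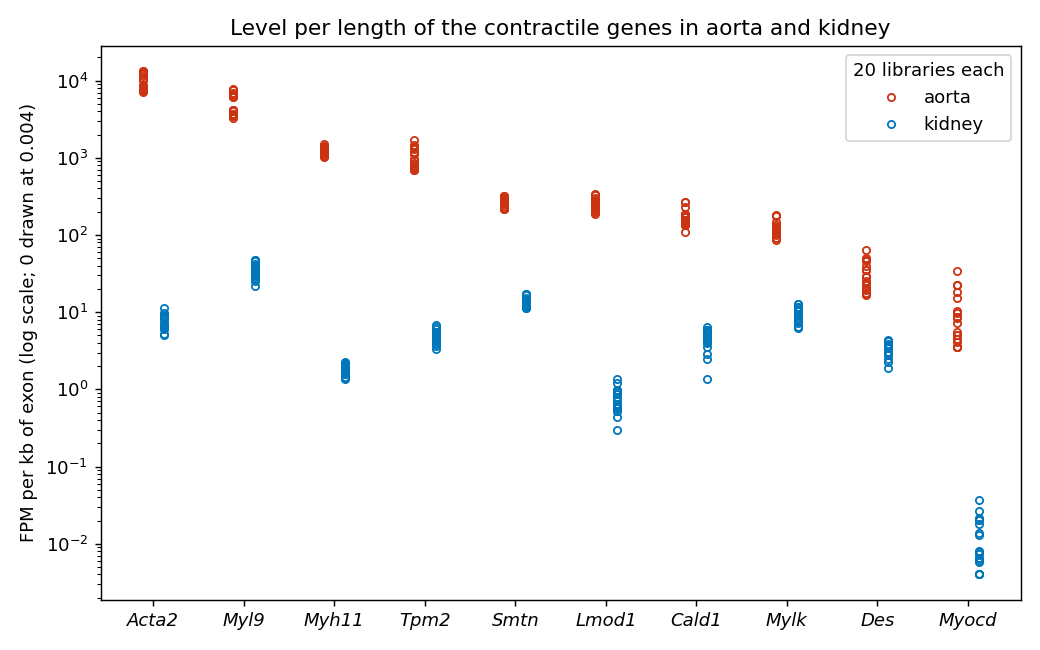
Level per exon length (FPM per kb, log axis) of the 10 contractile genes in 20 aorta and 20 kidney libraries, 1 circle for each library, ordered by the aortic mean; kidneys with 0 Myocd counts are drawn at 0.004. The aortic circles lie above the kidney circles for every gene, and the distance is widest for Acta2, Myh11, Lmod1 and Myocd and narrowest for Smtn, Mylk and Des.

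The comparison of both tissues asks where these genes are expressed. The 9 members that could be tested within both tissues passed the test in the joint fit of 40 libraries (adjusted p under 0.05, fold over 1.5 and over 5 FPM in at least 1 tissue), each of them higher in aortas, where 20.8% of the 17514 genes tested were called higher, 22% lower and 42.8% in either direction. The median log2 fold change of these 9 was 6.94 and that of all genes -0.02. Among the 9, Acta2 had the largest value, with 10.13 (standard error 0.14, 95% interval 9.83 to 10.42), followed by Myh11 with 9.16 (standard error 0.09, 95% interval 8.98 to 9.34). Lmod1 reached 8.20 (standard error 0.16, 95% interval 7.88 to 8.53), Tpm2 7.54 and Myl9 6.94. The difference was smaller for Cald1 (5.05), Smtn (4.07) and Mylk (3.50), and smallest for Des with 3.06 (standard error 0.16, 95% interval 2.74 to 3.38). These 4 proteins, or forms of them, are also known from cells other than vascular smooth muscle. The largest adjusted p among the 9 was 8.35e-20 (edgeR's quasi-likelihood test). Myocd entered the joint test only through its level in aortas, so it had to differ, and its fitted value of 9.74 (95% interval 8.82 to 10.66), which lies between those of Acta2 and Myh11, depends on the few kidney counts. The tissues were counted in separate tables, so tissue and table cannot be told apart. In bulk tissue, fewer smooth muscle cells and less RNA of these genes per cell cannot be told apart either.

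Promoters of the members were looked at for the CArG box, since most of the 10 are known as targets of SRF and myocardin. RefSeq windows from 250 bases before to 50 bases after the transcription start (GRCm38.p6) matched 8 of the 10 members, all but Myh11 and Myocd. The strict box (CC, 6 bases of A or T, GG, which reads the same on both strands) occurs in 1.63% of all 32851 windows, and among the members it was found for Myl9. With at least 5 of the 6 inner bases A or T, a superset of the strict search, 9.98% of all windows match. Of the 9 windows of members 2 match, those of Acta2 and Myl9, and each carries 2 such boxes. These are also the 2 members with the highest level per length in aortas, and a link between box and level was not tested. The 4 stretches are shown, 5′ to 3′, with the box in capitals and 10 bases on either side.
Acta2, chr19:34255438-34255467, minus strand, box from 84 bases before the start: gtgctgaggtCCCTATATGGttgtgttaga
Acta2, chr19:34255388-34255417, minus strand, box from 34 bases before the start: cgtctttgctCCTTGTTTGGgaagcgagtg
Myl9, chr2:156775293-156775322, plus strand, box from 161 bases before the start: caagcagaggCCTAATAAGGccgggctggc
Myl9, chr2:156775355-156775384, plus strand, box from 99 bases before the start: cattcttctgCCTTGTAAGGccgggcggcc
The GENCODE M21 annotation starts Acta2 further upstream and its first exon covers both Acta2 stretches, while both Myl9 stretches lie upstream of the gene in either annotation. A match is a description of these letters and does not show whether SRF binds there, and boxes outside the windows were not searched.

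Among the aortas, the members fell into genes that held their level and genes that varied widely. Myh11 varied least, from 7672 to 11404 FPM over the 20 libraries (coefficient of variation 10.3%), and Myocd most, from 22.5 to 223 FPM (81.9%). For Acta2 the levels were 22823, 27654, 28249.7, 17476 and 18383 FPM in WT SFD and 26609, 28122, 29132, 18228 and 22172 FPM in WT HFD. In KO mice they were 28996, 22892, 16086, 15776 and 15924 FPM under SFD and 25315, 17177, 16423, 18848 and 19048 FPM under HFD. Each group contains libraries at 22823 FPM or more and libraries at 22172 FPM or less, and all 4 groups overlap. The group means were 22917 ± 5026, 24853 ± 4559.7, 19935 ± 5896 and 19362 ± 3507 FPM (SD, n = 5 each).

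Myl9, the regulatory light chain, showed the same split more sharply. Its levels were 7139, 8075, 7880.5, 4185 and 4070.5 FPM in WT SFD and 7393, 8644, 7857, 4809 and 4139.9 FPM in WT HFD. In KO SFD they were 9016, 7104, 4269, 4137 and 4335 FPM and in KO HFD 7348, 4753, 4837, 4875 and 3834 FPM. No library lay between 4875 and 7104 FPM. Myocd, the transcriptional coactivator, ran the opposite way. It had 32.9, 22.9, 35.2, 117 and 143 FPM in WT SFD and 22.7, 22.5, 28.5, 65.8 and 144 FPM in WT HFD. KO SFD aortas had 26.01, 32.7, 54.95, 96.8 and 54.1 FPM and KO HFD aortas 22.5, 55.4, 63.1, 46.1 and 223 FPM. The libraries with high Acta2 and Myl9 were those with low Myocd, in every group. Des, the intermediate filament protein, was at 132, 151, 179.9, 111 and 95.3 FPM in WT SFD and 131, 174, 176, 107 and 84.3 FPM in WT HFD. It was at 238, 132, 65.5, 66.98 and 72.5 FPM in KO SFD and 186, 78.3, 74.4, 88.6 and 62.8 FPM in KO HFD. The first libraries named in each group carry the high values here as well.

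**Figure D2:**
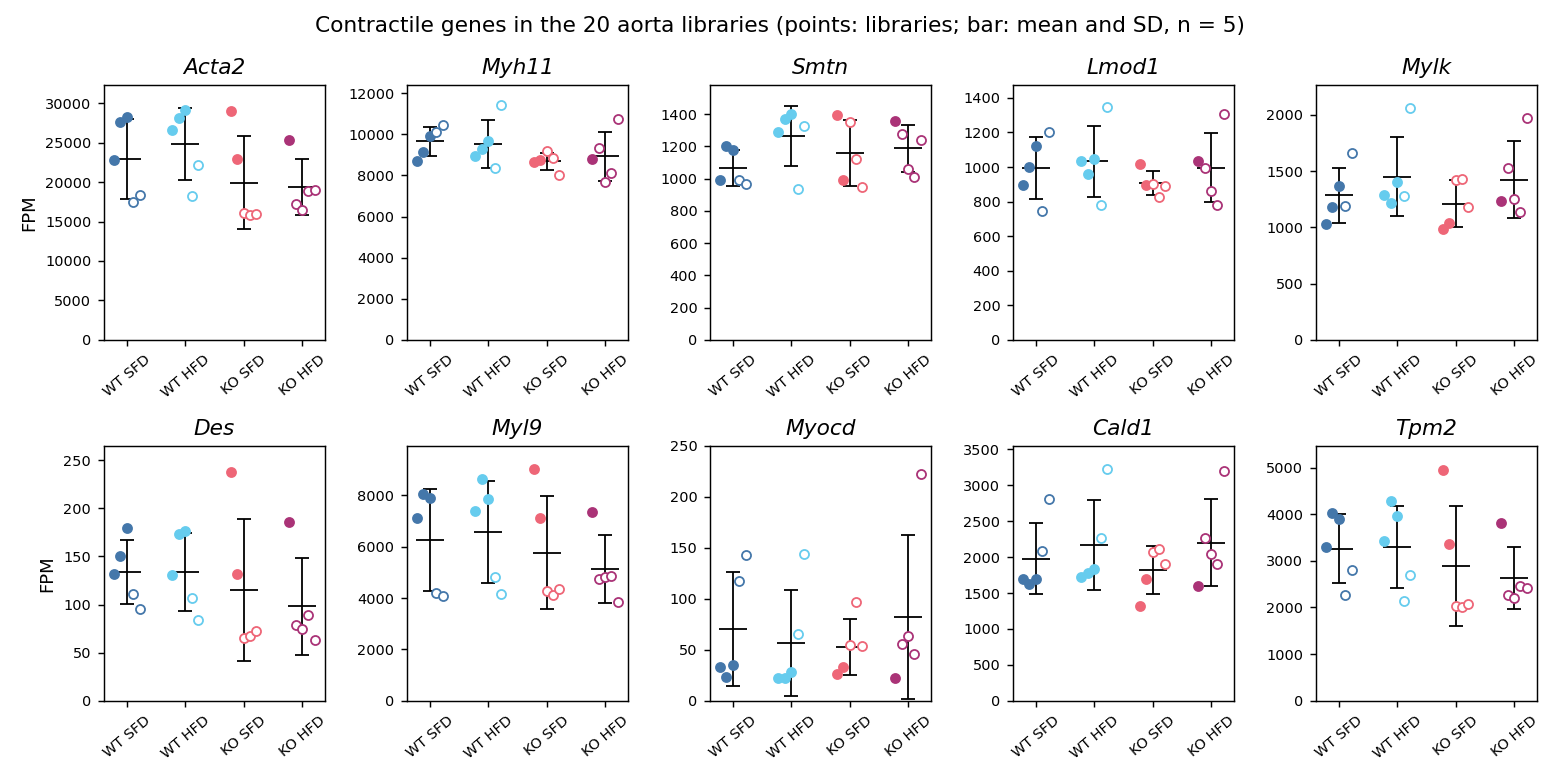
FPM of the 10 contractile genes in the 20 aorta libraries by group; points are libraries, the line and bar give the mean and SD (n = 5), and filled points are the 9 libraries with a length index above 0.29. Filled and open points separate for Acta2, Des, Myl9, Tpm2, Myocd and Cald1, and the 4 groups overlap for every gene.

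A property of the libraries moved with this split. A length index was computed for each library as the mean log2 FPM of 1039 short protein-coding genes (exons under 2000 bases in all) minus that of 4513 long ones (over 5000 bases), with the members left out and centred on the mean of the 20 aortas. It was 0.29 to 0.62 in 9 aortas (R-1, R-2 and R-3 of WT SFD, R-6, R-7 and R-8 of WT HFD, R-11 and R-12 of KO SFD, R-16 of KO HFD) and -0.59 to 0.04 in the other 11. These 9 are the libraries with the lowest label numbers of their groups. The ranges of both sets of libraries did not overlap for 6 of the 10 members, a property that 14.7% of the 15122 genes tested shared. The members higher in the 9 libraries have short to medium exon lengths, merged over all annotated transcripts. Myl9 (1.16 kb of exon) had 7104 to 9016 FPM in the 9 and 3834 to 4875 FPM in the 11 libraries, Acta2 (2.20 kb) 22823 to 29132 against 15776 to 22172 FPM, Tpm2 (2.91 kb) 3289.8 to 4945 against 2007 to 2808 FPM and Des (3.75 kb) 131 to 238 against 62.8 to 111 FPM. The members lower in the 9 libraries have long exon lengths by this measure, which need not be those of the transcripts expressed. Cald1 (12.04 kb) had 1316 to 1834 against 1897 to 3224 FPM and Myocd (6.42 kb) 22.5 to 35.2 against 46.1 to 223 FPM. Lmod1 (3.95 kb), Smtn (4.38 kb), Myh11 (7.60 kb) and Mylk (11.26 kb) overlapped between both sets. The index was built after the values of the members had been seen, and what sets it was not tested. The WT groups hold 3 of the 9 libraries each, KO SFD 2 and KO HFD 1, so the split is not balanced between genotypes. The 9 include the near-identical pair, R-1 of WT SFD and R-12 of KO SFD, which may not count as separate libraries.

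**Figure D3:**
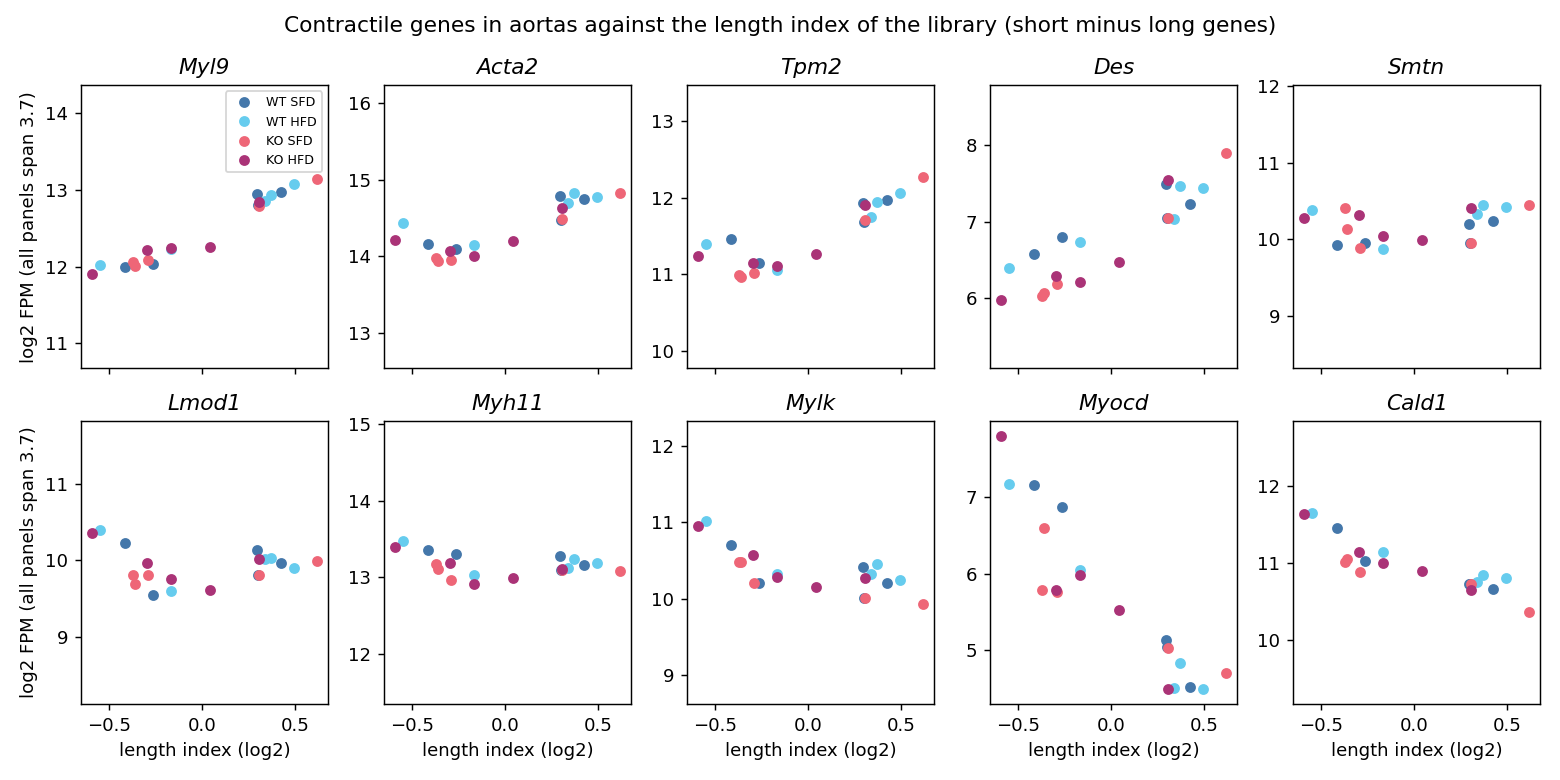
Log2 FPM of each contractile gene in the 20 aortas against the length index of the library (mean log2 FPM of short minus long genes), coloured by group. Myl9, Acta2, Tpm2 and Des are higher in the 9 libraries with an index of 0.29 to 0.62, Myocd and Cald1 are lower there, and Smtn, Lmod1 and Myh11 run nearly level.

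Deletion of endothelial EGFR was compared with WT under each diet and averaged over diets, to ask whether the contractile programme of the vessel wall depends on it. No member passed an adjusted p of 0.05 in edgeR's quasi-likelihood test under SFD, under HFD or averaged over diets (0 of 10 each, where 0%, 0% and 0.0198% of 15122 genes were called), and none had an unadjusted p under 0.05. DESeq2 called 0 members too, with 1 unadjusted p under 0.05 averaged over diets. Averaged over diets the fold change was negative for 8 of 10 members, with a median of -0.11 (0.01 for all genes). It was -0.28 (standard error 0.14, 95% interval -0.58 to 0.02) for Acta2, with an adjusted p of 0.611. For Myh11 it was -0.12 (standard error 0.08, 95% interval -0.29 to 0.05) and for Myl9 -0.24 (standard error 0.20, 95% interval -0.65 to 0.17). Smtn had 0.02 (standard error 0.10, 95% interval -0.19 to 0.22) and Mylk -0.06 (standard error 0.13, 95% interval -0.33 to 0.22). For the actin-associated Cald1 the value was -0.05 (standard error 0.15, 95% interval -0.37 to 0.27), for Tpm2 -0.25 (standard error 0.18, 95% interval -0.64 to 0.14) and for Lmod1 -0.09 (standard error 0.11, 95% interval -0.33 to 0.14). The intervals were widest for Des with -0.34 (standard error 0.25, 95% interval -0.86 to 0.19) and Myocd with 0.06 (standard error 0.46, 95% interval -0.90 to 1.02), so that the spread of Myocd between libraries left its difference poorly determined.

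When the length index entered the fit as a covariate, an alternative added after the data had been seen, the intervals became narrower and 0 of 10 members were called. The fold change of Myl9 was then -0.05 (-0.16 to 0.06), where the parentheses hold the 95% interval, that of Des -0.22 (-0.45 to 0.00) and that of Myocd -0.19 (-0.57 to 0.20). Cald1 had -0.17 (-0.29 to -0.05), Acta2 -0.18 (-0.35 to -0.01) and Myh11 -0.15 (-0.28 to -0.02). These 3 had unadjusted p-values of 0.00762, 0.0343 and 0.0301, and their adjusted p-values in this fit were 0.209, 0.326 and 0.313. Over all alternatives the adjusted p ranged from 0.209 to 1 for Cald1, from 0.326 to 0.875 for Acta2 and from 0.313 to 0.934 for Myh11. With the side of the gap as a block in place of the index, 0 members were called as well.

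HFD was compared with SFD in WT, in KO and averaged over genotypes. Of the 10 members, 0 passed the test (adjusted p under 0.05, fold over 1.5 and over 5 FPM) in WT, KO or on average, where 0.00661%, 0% and 0.0265% of genes were called, and 0 had an unadjusted p under 0.05 in edgeR or DESeq2. Averaged over genotypes, 7 of 10 fold changes were positive, with a median of 0.07 (0.00 for all genes). The actin Acta2 had 0.04 (standard error 0.14, 95% interval -0.26 to 0.34) and the myosin Myh11 0.01 (standard error 0.08, 95% interval -0.16 to 0.18). Mylk had 0.20 (standard error 0.13, 95% interval -0.07 to 0.48), Cald1 0.20 (standard error 0.15, 95% interval -0.11 to 0.52) and Smtn 0.14 (standard error 0.10, 95% interval -0.06 to 0.34). Myl9 had -0.05 (standard error 0.20, 95% interval -0.46 to 0.36), Tpm2 -0.06 (standard error 0.18, 95% interval -0.44 to 0.33), Lmod1 0.10 (standard error 0.11, 95% interval -0.14 to 0.33), Des -0.11 (standard error 0.25, 95% interval -0.64 to 0.41) and Myocd 0.16 (standard error 0.46, 95% interval -0.80 to 1.12). For Smtn in WT, the mean went from 1066 ± 114 FPM (SFD) to 1264 ± 187 FPM (HFD; SD over 5 aortas), a difference within the spread of the libraries (adjusted p = 1). The effect of HFD did not differ between KO and WT for any member at an adjusted p of 0.05 (0 of 10 called, background 0%, and 0 unadjusted p-values under 0.05 in edgeR and DESeq2).

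**Figure D4:**
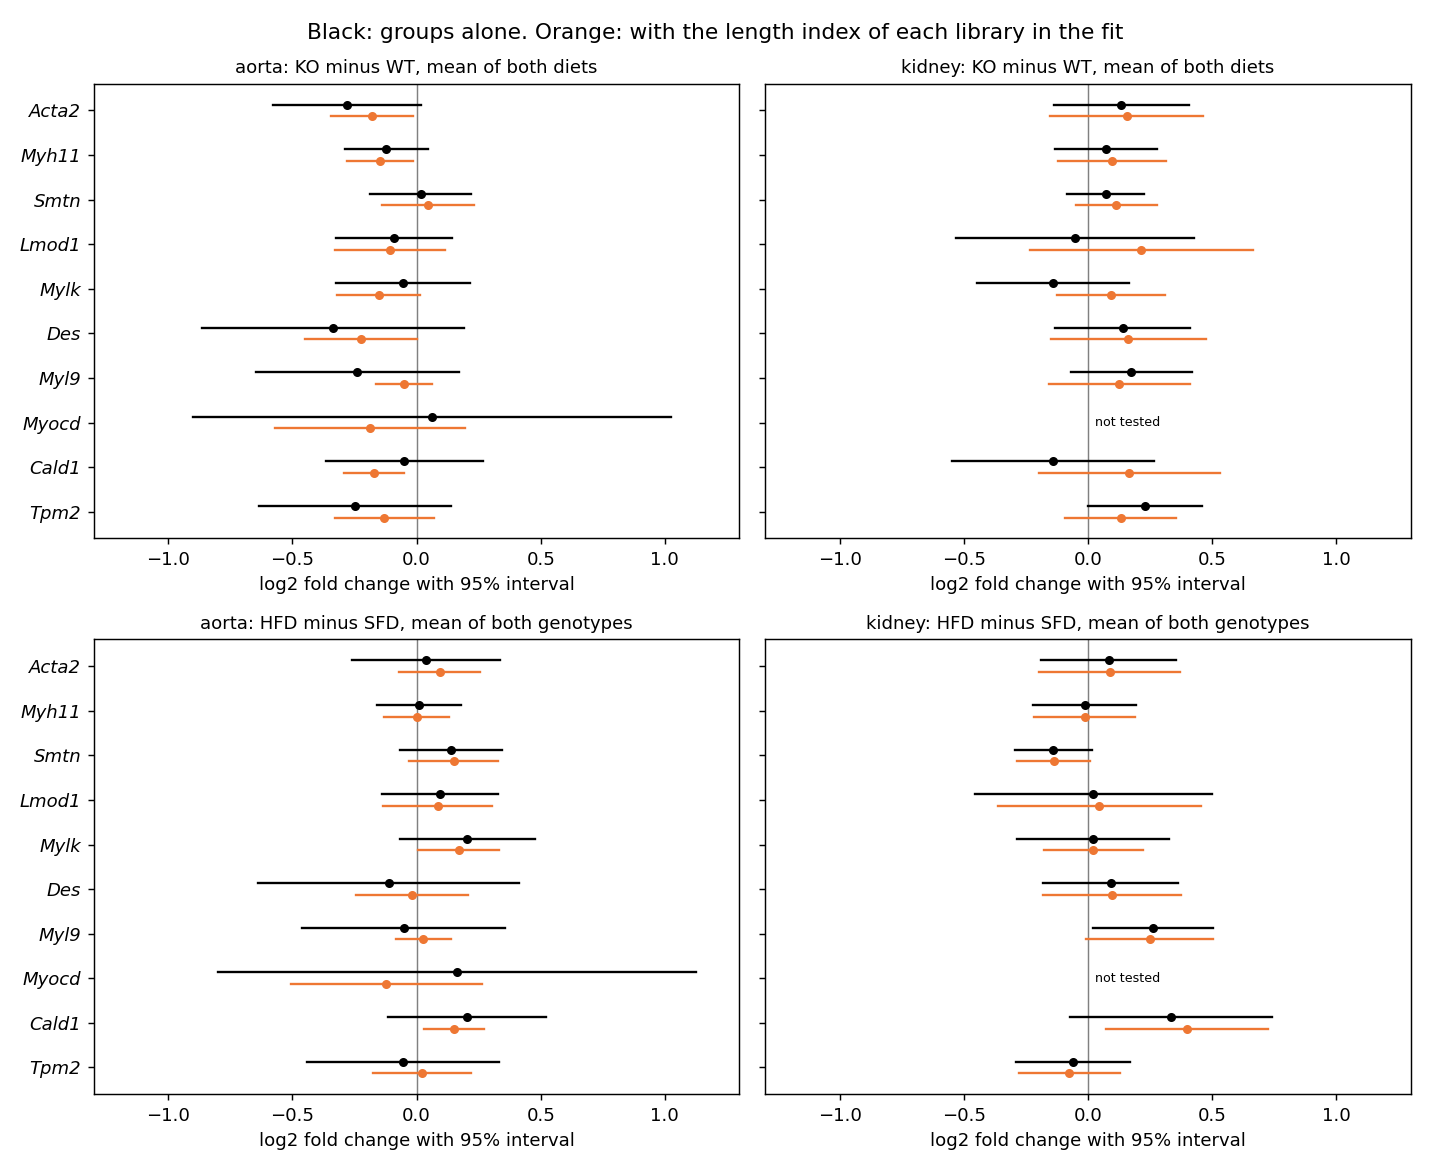
Log2 fold changes with 95% intervals of the 10 contractile genes in aortas (left) and kidneys (right), for KO against WT averaged over diets (top) and HFD against SFD averaged over genotypes (bottom); black is the fit with groups alone and orange the fit with the length index. In aortas the orange intervals of Acta2, Des, Myl9, Myocd and Cald1 are narrower than the black ones; Myocd was not tested in kidneys.

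Markers of other cell types in the aortas were summed for each library. For 9 adipocyte genes the sum was 286 to 779 FPM in WT SFD aortas. It was 179 to 548 FPM in WT HFD, then 193 to 442 FPM in KO SFD and 198 to 354 FPM in KO HFD aortas. For 12 skeletal muscle genes (Acta1 is listed at 0) the sums were 6.58 to 13.9, 4.74 to 11.2, 6.39 to 13.6 and 4.64 to 9.39 FPM in the same order, with 11 genes above 0. For 9 cardiac muscle genes (8 above 0, Myl3 listed at 0) the sums were 19.3 to 31.5 FPM in the 9 libraries with the high length index and 11.1 to 19.1 FPM in the other 11, without overlap. Most of the cardiac sum is Tnnt2 (mean 12.9 FPM) and Tnni3 (3.97 FPM), while Myl2 and Nppa were near 0. Skeletal muscle sums ran the same way with overlap, at 8.65 to 13.9 FPM in the 9 and 4.64 to 9.43 FPM in the 11. Adipocyte sums were 341 to 779 and 179 to 611 FPM. Sums of 7 fibroblast genes ran the other way, at 4470 to 7132 and 5598 to 11727 FPM. Of single genes, 14.7% separated both sets without overlap. The cardiac, skeletal muscle and adipocyte sums thus moved with the split, in the direction of Acta2, Myl9, Tpm2 and Des. Their part in it was not tested, and marker genes were not excluded from the length index that defines the split. The 7 lymphoid genes (Cd3e and Cd3g listed at 0) summed to 69.7 FPM in R-11 and 124 FPM in R-16, which also held the highest Des levels, and to 4.33 to 17.1 FPM in the other 18 aortas. Endothelial sums (8 of 10 genes above 0, with Cdh5 and Esam listed at 0) also differed between both sets. They were 357 to 1456 FPM in the 9 libraries with the high length index and 953 to 1943 FPM in the other 11. These sums thus ran lower in the 9, with overlap, and their part in the split was not tested. With the adipocyte or the skeletal muscle score as a covariate, 0 of 10 members were called in any of the 7 comparisons.

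In kidneys the smooth muscle of arteries and arterioles is a small share of the tissue. The 9 members tested there stood at 2.91 (Lmod1) to 103 FPM (Mylk) on average, and Myocd at 0.0712 FPM. Library a18 of WT SFD was the lowest of the 20 for 6 of the 9 members tested. For Cald1, levels were 29.7, 78.5, 16.6, 55.9 and 61.7 FPM in WT SFD (a16 to a20) and 71.2, 49.5, 66.01, 70.3 and 66.6 FPM in WT HFD. KO SFD kidneys had 34.8, 42.9, 50.8, 51.4 and 53.3 FPM and KO HFD kidneys 49.9, 48.1, 62.4, 61.98 and 54.9 FPM. The WT SFD group spans the whole range, with a17 the highest and a18 the lowest kidney of all. Other cell types moved with these libraries. The summed endothelial markers were 152 FPM in a18, 226 in a16 and 456 in a17, against 286 to 424 FPM over the HFD groups and KO SFD. Fibroblast markers stood at 43.0, 71.5 and 148, and aortic wall markers at 73.0, 122 and 299.7 FPM in a18, a16 and a17. Their part in the spread of Cald1 was not tested. The length index was 0.38 in a18, 0.07 in a16 and -0.15 in a17.

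**Figure D5:**
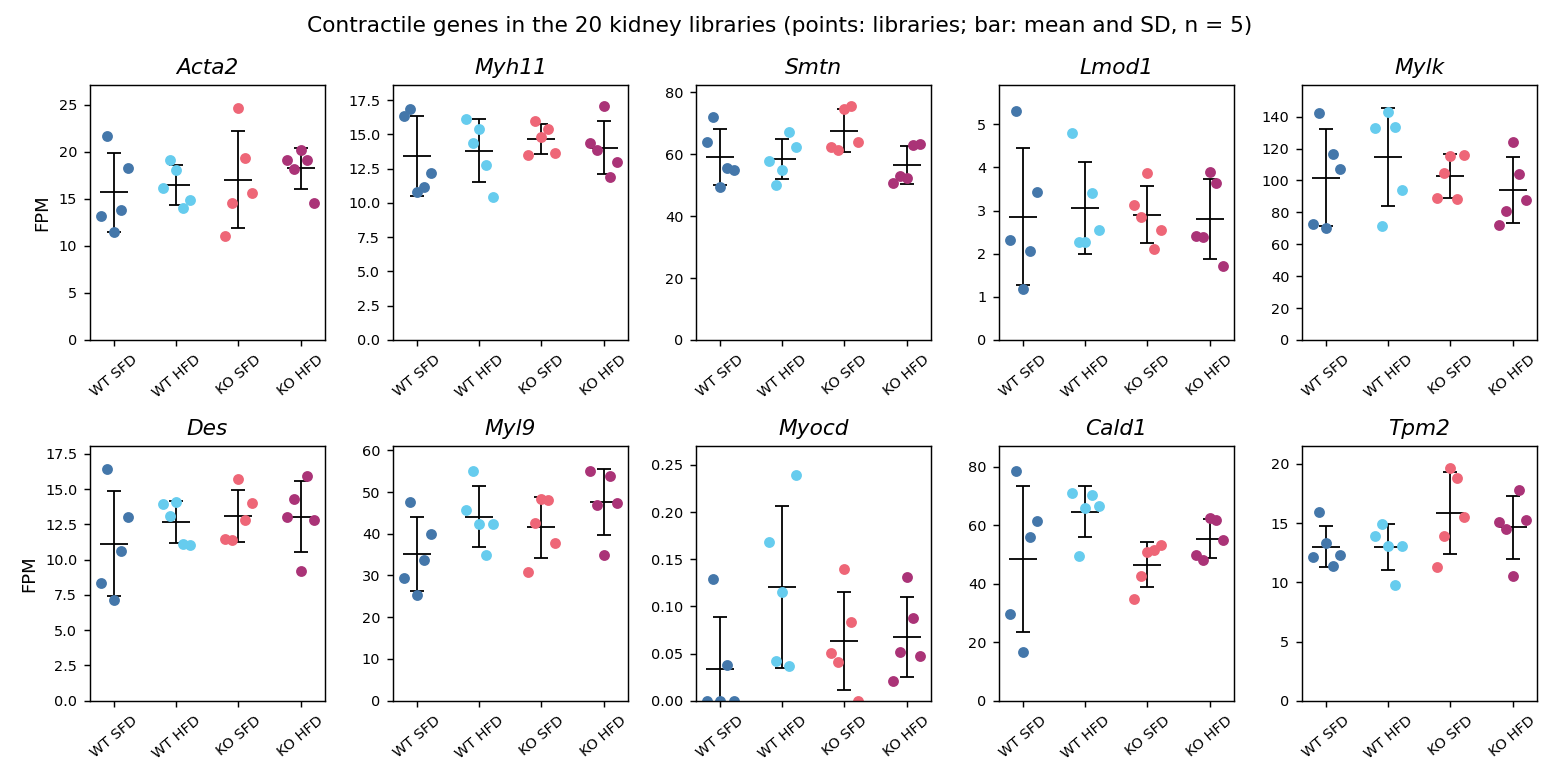
FPM of the 10 contractile genes in the 20 kidney libraries by group; points are libraries, the line and bar give the mean and SD (n = 5). The 4 groups overlap for every gene, WT SFD has the widest spread of Cald1 (16.6 to 78.5 FPM), and Myocd stays below 0.24 FPM.

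Deletion of EGFR left no member past the test in kidneys: 0 of 9 under SFD, under HFD and averaged over diets, where 0% of the 15943 genes tested were called in each comparison. Unadjusted p-values under 0.05 numbered 0, 0 and 1 in edgeR and 0, 0 and 1 in DESeq2. The single one belonged to Tpm2, averaged over diets, with 0.23 (standard error 0.11, 95% interval 0.00 to 0.46) and an adjusted p of 0.802. Its levels were 12.1, 15.9, 13.3, 11.4 and 12.3 FPM in WT SFD and 13.9, 14.96, 13.1, 9.76 and 13.1 FPM in WT HFD. KO SFD had 11.3, 13.9, 19.6, 18.8 and 15.5 FPM and KO HFD 15.1, 14.5, 10.5, 17.8 and 15.3 FPM, so WT and KO overlap under both diets. Acta2 had 0.14 (standard error 0.13, 95% interval -0.14 to 0.41) and Myh11 0.07 (standard error 0.10, 95% interval -0.13 to 0.28). For Mylk the value was -0.14 (standard error 0.15, 95% interval -0.44 to 0.17) and for Cald1 -0.14 (standard error 0.19, 95% interval -0.55 to 0.27). Without a18, the fold change of Cald1 was -0.24, and without a17 it was -0.01. With the length index in the fit it was 0.17, with an adjusted p of 0.998.

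HFD was compared with SFD in kidneys as well. With the thresholds for HFD, 0 of 9 members passed in WT, in KO and averaged over genotypes, where 2.18%, 2.16% and 2.86% of genes were called (1.27%, 1.23% and 1.67% higher). Over 9 members, 0 calls does not set them apart from shares of this size. Unadjusted p-values under 0.05 numbered 0, 1 and 1 in edgeR and in DESeq2 alike. For Myl9 the value averaged over genotypes was 0.26 (standard error 0.12, 95% interval 0.02 to 0.51) and an adjusted p of 0.133. Its levels were 29.3, 47.5, 25.4, 33.7 and 39.9 FPM in WT SFD and 45.8, 55.1, 42.3, 35.00 and 42.4 FPM in WT HFD. In KO kidneys they were 30.9, 42.6, 48.3, 48.02 and 37.8 FPM under SFD and 55.1, 46.9, 34.9, 53.8 and 47.4 FPM under HFD, with overlap between the diets in both genotypes. Over all alternatives the adjusted p of this value ran from 0.0458, without a17, to 0.323, and the fold stayed under 1.5. For Smtn in KO, levels were 62.5, 61.5, 74.6, 75.7 and 63.8 FPM under SFD and 50.8, 53.02, 52.4, 63.03 and 63.3 FPM under HFD. The difference was -0.26 (standard error 0.11, 95% interval -0.48 to -0.04) with an adjusted p of 0.169. Averaged over genotypes, Cald1 had 0.33 (standard error 0.19, 95% interval -0.07 to 0.74), Acta2 0.08 (standard error 0.13, 95% interval -0.19 to 0.36), Myh11 -0.01 (standard error 0.10, 95% interval -0.22 to 0.19) and Des 0.09 (standard error 0.13, 95% interval -0.18 to 0.36). With the length index in the fit, Cald1 had 0.40 (0.07 to 0.72) and an adjusted p of 0.067. The median over the 9 members was 0.02 and that over all genes 0.00. The interaction of HFD and KO gave 0 of 9 calls (background 0%) and 0 unadjusted p-values under 0.05 in both tools.

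Whether HFD acts differently on the members in aortas and kidneys was tested in the joint fit. Of 10 members, 0 passed an adjusted p of 0.05, where 6.5% of 17514 genes did (2.53% higher and 3.97% lower). The smallest p belonged to Smtn, whose HFD effect in aortas minus that in kidneys was 0.29 (standard error 0.12, 95% interval 0.04 to 0.53) (adjusted p = 0.183). It was the single member with an unadjusted p under 0.05 in edgeR, and DESeq2 likewise gave 1 such p and 0 calls. For Myl9 the difference was -0.31 (standard error 0.23, 95% interval -0.79 to 0.17).

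Further genes of the contractile apparatus were taken as 5 lists: other filament proteins (16 genes), signalling that sets contraction (27), dense plaques and intermediate filaments (19), transcriptional control (17), and genes known from smooth muscle cells that left the contractile state (13). In aortas, 0 genes of any list passed in any of the 7 comparisons of diet and genotype, over 12, 26, 17, 12 and 12 genes tested. Between tissues, where 20.8% of all genes tested were called higher and 22% lower in aortas, the lists are given with the 3 genes of smallest p, not of largest fold. Of 12 filament genes tested 10 were higher and 0 lower, with a log2 fold change of 3.89 for Cnn2 and 1.70 for Cnn3 (calponins). Actg2 (smooth muscle γ-actin) averaged 219 FPM in aortas and 0.0864 FPM in kidneys, too little for a fold. Of 17 dense plaque genes 16 were higher and 0 lower, with 7.69 for Pdlim3, 4.33 for Itga7 and 7.52 for Vim, while Itga8 (integrin α8) had the larger value of 8.06. In kidneys alone, 10 filament and 16 dense plaque genes passed the filter. The counts of both lists thus include genes that entered through aortas only and could only come out higher. Of 12 transcriptional regulators 10 were higher and 0 lower, with 6.69 for Hey2, 6.18 for Gata6 and 4.12 for Mef2c. Of 26 signalling genes 20 were higher and 2 lower. Kcnmb1 (a subunit of the calcium-activated potassium channel) had 8.25, Mrvi1 6.23 and Pde5a 4.89, whereas Adra1a (-2.62) and Agtr1a (-4.87), the α1A-adrenergic and angiotensin receptors, were lower in aortas. These receptors are named after their values were seen. Of 12 genes known from modulated smooth muscle 7 were higher and 3 lower in aortas, so this list moved in both directions, with 7.07 for Lum (lumican), 5.81 for Tnfrsf11b (osteoprotegerin) and -8.58 for Spp1 (osteopontin).

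In kidneys a few list genes passed for HFD against SFD. Averaged over genotypes, 2 of 26 signalling genes were higher and 0 lower, where 1.67% of all genes were called higher and 1.19% lower. Gucy1b1, a subunit of the nitric oxide receptor guanylate cyclase, rose in WT from 6.56 ± 2.46 to 11.5 ± 1.56 FPM (SD, 5 kidneys each; adjusted p = 0.0252, edgeR). In KO its means were 7.08 ± 1.44 and 10.3 ± 1.19 FPM, and it did not pass the test there (adjusted p = 0.158, edgeR). Gucy1b1 was called on average over both genotypes (log2 fold change 0.67, standard error 0.15, adjusted p = 0.00389, edgeR). Averaged over genotypes, Adra1a rose by 0.61 on the log2 scale (adjusted p = 0.0224, standard error 0.18, edgeR). Of the 12 genes known from modulated smooth muscle, 2 were higher and 0 lower. Col8a1, a collagen of vessel walls, rose from 4.13 ± 1.79 to 15.3 ± 4.89 FPM in WT and from 2.36 ± 0.923 to 15.8 ± 6.73 FPM in KO (SD, 5 kidneys each). Its log2 fold change averaged over genotypes was 2.32 (standard error 0.26, adjusted p = 3.54e-06, edgeR), and HFD and SFD libraries did not overlap in either genotype. Sox9 (log2 fold change 2.91) and Lum (1.36) also had adjusted p-values under 0.05 (4.26e-07 and 0.000255, edgeR) but did not reach 5 FPM. Vcam1, an adhesion molecule that renal epithelium can also express, had 0.65 averaged over genotypes (standard error 0.19, adjusted p = 0.0231, edgeR). The other 3 lists gave 0 calls in kidneys, and KO against WT gave 0 calls for all 5. Marker sums moved with HFD as well. The 12 skeletal muscle genes (9 above 0, with Acta1, Myh2 and Tnnc2 listed at 0) summed to 13.9 to 46.97 FPM in WT SFD and 46.5 to 73.3 FPM in WT HFD kidneys. In KO kidneys they summed to 18.4 to 32.01 and 61.3 to 85.1 FPM. Most of this is Pvalb, a gene that kidney tubules also express, with a mean of 41.5 FPM, while no other gene of the list averaged over 1.55 FPM. The 8 nephron genes had medians of 11827 FPM in WT SFD and 11239 FPM in WT HFD, and of 11732 and 10805 FPM in KO. The 5 aortic wall genes had medians of 176 FPM in WT SFD and 252 FPM in WT HFD, and of 188 and 234 FPM in KO. Medians of the 7 fibroblast genes, Lum among them, were 106 and 128 FPM in WT and 94.2 and 114 FPM in KO. SFD and HFD kidneys overlapped for both sums in either genotype. Pericyte and mesangium markers had medians of 116 and 133 FPM in WT but 124 and 120 FPM in KO. The part of these sums in the HFD values of the list genes was not tested.

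The genes whose deviation from their group mean was most like the mean deviation of the members were named in each tissue, over 20 libraries and without a test. In aortas they were Snd1 (Pearson's r 0.92), Marveld1 (0.91), Mast2 (0.90), Zfp553 (0.89) and Ints5 (0.89) among 8996 genes. Members that vary in opposite directions cancel in this mean, and the libraries fall into 2 sets there. In kidneys they were Myadm (0.93), Lrp1 (0.93), Fstl1 (0.92), Emilin1 (0.92) and Axl (0.92) among 8836 genes, which are known from mesenchymal and vessel wall cells. The points share their library, and thus its depth and length index.

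Annotated genes overlap the exons of 3 members. Gm11946, which overlaps Smtn, had 1.39 to 7.84 FPM in aortas. Gm11947, which overlaps Smtn by 39 bases, is listed at 0. Gm21691 and E130310I04Rik, which overlap Mylk, had at most 4.56 FPM in aortas (5.09 FPM in kidneys), and Gm15179 at Des had at most 0.213 FPM. Since the strand setting of the counting is not given in the sources used here, reads of these genes and their partners cannot be told apart. No other transcript of GENCODE M21 aligned to a member over at least 150 bases at 98% identity or more.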

How the data were processed

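RNA was sequenced as paired reads of 150 bases from 20 aortas and 20 kidneys. The authors mapped reads to mm10 and deposited whole-number counts per gene from featureCounts, 1 table per tissue. The submitters' processing notes name HISAT2 2.1.0, whereas the methods of the study name Tophat2, and the strand setting is not given in the sources used here. From the deposited counts, TMM factors, the filterByExpr filter by group and robust quasi-likelihood tests were computed with edgeR 4.0.16 (R 4.3.3) over all genes, with Benjamini-Hochberg adjustment. A gene was called at an adjusted p under 0.05, and for HFD and for aorta against kidney also at a fold over 1.5 and over 5 FPM in a group. All 4 groups of a tissue entered 1 fit. The tests were also run on simulated data with independent libraries. These held no near-identical pair and no split by length index, so they do not check the tests for such features. Alternatives were DESeq2 1.42.0, RLE factors, other filters, left-out libraries and covariates. Named were the members, Egfr, list genes called (at most the 3 with the smallest p) and the 5 genes most like the members per tissue. Members and lists were chosen with earlier results of these data known.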

Additional observations from a re-analysis of the deposited data

Results flagged for a closer look

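Of 76 groups of 5 libraries tested for a library far from the others of its group, 6 were past the critical value of 0.71 for the gap as a share of the range, where chance at 1 in 20 gives 3.8. In KO HFD aortas, R-16 was high for Des (186 FPM, next 88.6) and Tpm2 (3818 FPM, next 2471), and R-20 was high for Myocd (223 FPM, next 63.1). R-16 is the single KO HFD aorta with a length index above 0.29, and its lymphoid markers summed to 124 FPM, against 6.36 to 12.4 FPM in the other KO HFD aortas. In WT HFD aortas, R-9 was low for Smtn (938 FPM, next 1289) and R-10 high for Mylk (2063 FPM, next 1404). In WT HFD kidneys, a12 was low for Cald1 (49.5 FPM, next 66.01), and a12 is one of the near-identical pair.

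The effect of HFD differed between aortas and kidneys for 4 genes of the pathway lists by the interaction term in edgeR, 1 of 26 signalling genes and 3 of 12 genes known from modulated smooth muscle, and for 0 members, where 6.5% of all 17514 genes passed. The difference, aorta minus kidney on the log2 scale, was -0.62 for Gucy1b1 (adjusted p = 0.0185), -1.51 for Lum (adjusted p = 0.000805), -2.41 for Sox9 (adjusted p = 3.79e-05) and -2.35 for Col8a1 (adjusted p = 0.000169).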

How the results depend on the processing

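The number of members called was the same under all 414 alternative counts: 0 in every comparison of diet and genotype, and 10 of 10 for aorta against kidney, where Myocd passed the filter through aortas only. Of 1518 recomputed fold changes (those averaged over diets or genotypes, and aorta against kidney), 86 changed sign, none of a called value, and the largest fold change among these was 0.24 on the log2 scale. The largest move was 1.05, for Myocd under HFD with the skeletal muscle score as a covariate (-0.89 in place of 0.16). A value was counted as moved if it changed sign and shifted by at least its standard error in the main fit. All 16 such values came from the muscle and adipocyte scores, the length index and the block for the side of its gap. Shifts of this size without a change of sign were not counted, and the cause was not tested. Fold changes within 1 diet or 1 genotype were recomputed as values only with the length index, where KO against WT under HFD in aortas went from 0.53 to -0.03 for Myocd and from -0.36 to -0.06 for Myl9. For the other alternatives, and for the tissue difference of the HFD effect, only the counts of members called were recomputed. The length index and its block, and the fit for the tissues with it, were chosen after seeing the data. No paired analysis was possible because no replicate name is shared between groups. Myocd was near the counting floor in kidneys, where depth limits what can be said of it.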
